A study of Petunia x hybrida with 7 samples.

Results

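The sites described here are peaks of PhDEF binding that lie toward the ends of the 7 long scaffolds of a petunia genome assembly. ChIP-seq, the sequencing of DNA that co-precipitates with a protein, was used to map this binding. The petals came from stage 8 flowers of the cultivar R27 of Petunia x hybrida, and tube and limb were pooled. The wild type was compared with 2 chimeras. A wico petal has a wild-type epidermis over a mesophyll that is mutant for phdef. A star petal is the reverse, with a mutant epidermis over a wild-type mesophyll. Each genotype gave 2 immunoprecipitated libraries labelled as biological replicates, and wild-type petals also gave 1 input library. No input from the chimeras was analysed here. Chromatin of all groups was cross-linked in 2 steps, 1 h in 2.5 mM disuccinimidyl glutarate and 5 min in 1% formaldehyde, then precipitated with an antibody against PhDEF. Whole petals were used, so each chimera library also holds chromatin of the layer without functional PhDEF. The share of chromatin from each layer is not given in the sources used here. Fewer bound cells and weaker binding per cell therefore cannot be told apart.

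The deposited data were 3 lists of peaks, 1 per genotype, in which the authors had combined both replicates. The lists are labelled as having input removed, and the 1 input library among the samples came from wild-type petals. How the input was removed, and whether this acted evenly along the scaffolds, was not examined here. An end peak was defined as a peak with its midpoint in the first or last 10% of HiC_scaffold_1 to HiC_scaffold_7. Scaffold length was set to the highest end coordinate of any listed peak and ran from 112 to 189 Mb. The rule used position alone and no signal. It found 2899 end peaks among the 9626 peaks of the 3 lists. Of these, 981 belonged to the 3134 peaks of the wild type, 1305 to the 4276 of wico and 613 to the 2216 of star. The remaining 80% of the long scaffolds, called the middle, held 1706 wild-type, 2387 wico and 1168 star peaks. The 2 ends of all scaffolds together measured 202 Mb and the middle 809 Mb.

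PhDEF belongs to the B class of floral homeotic regulators, which specify petal and stamen identity. Proteins of this class are MADS-domain transcription factors that bind DNA as dimers with a partner of the GLOBOSA type, at short AT-rich motifs called CArG boxes. In many large plant genomes, genes become denser toward the ends of the chromosomes, whereas repeats are concentrated around the centromere. Neither genes nor centromeres were mapped on these scaffolds here, and whether a long scaffold is a whole chromosome is not given in the sources used here. The numbering of a scaffold from its first to its last base carries no known biological direction.

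PhDEF peaks were about 2 times as dense in the ends as in the middle in all 3 genotypes. The wild type had 4.85 peaks per Mb in the ends (95% interval 4.55 to 5.16) and 2.11 in the middle (2.01 to 2.21), a ratio of 2.30 (2.12 to 2.49). In wico the densities were 6.45 (6.11 to 6.81) and 2.95 (2.83 to 3.07) peaks per Mb, a ratio of 2.19 (2.04 to 2.34). In star they were 3.03 (2.80 to 3.28) and 1.44 (1.36 to 1.53), a ratio of 2.10 (1.90 to 2.32). The ends make up 20% of the length and held 36.5% of the wild-type peaks on the long scaffolds (34.7 to 38.4%), 35.3% of the wico peaks (33.8 to 36.9%) and 34.4% of the star peaks (32.2 to 36.7%). Intervals cover counting error only. Each genotype has a single list that combines its replicates, so there is no replicate spread and no significance test was made, and the sequencing depth behind the lists is unknown.

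The higher density of the ends held on each of the 7 scaffolds in each list when both ends of a scaffold were counted as 1 zone. The ratio of ends to middle was lowest on HiC_scaffold_4, with 1.55 in the wild type (1.27 to 1.89), 1.57 in wico (1.33 to 1.85) and 1.66 in star (1.29 to 2.12). It was highest on HiC_scaffold_2, with 3.82 (3.10 to 4.69), 3.85 (3.24 to 4.58) and 3.17 (2.44 to 4.12) in the same order. HiC_scaffold_4 was dense in both zones. Its ends were the densest of the 7 scaffolds in each list, with 6.41 wild-type, 8.99 wico and 4.18 star peaks per Mb, and so was its middle, with 4.13, 5.73 and 2.52 peaks per Mb. HiC_scaffold_2 had the sparsest middle in each list, with 1.29, 1.80 and 0.891 peaks per Mb. Its ends, at 4.91, 6.92 and 2.82 peaks per Mb, were the median of the 7 scaffolds in the wild type and star and above it in wico.

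**Figure D1:**
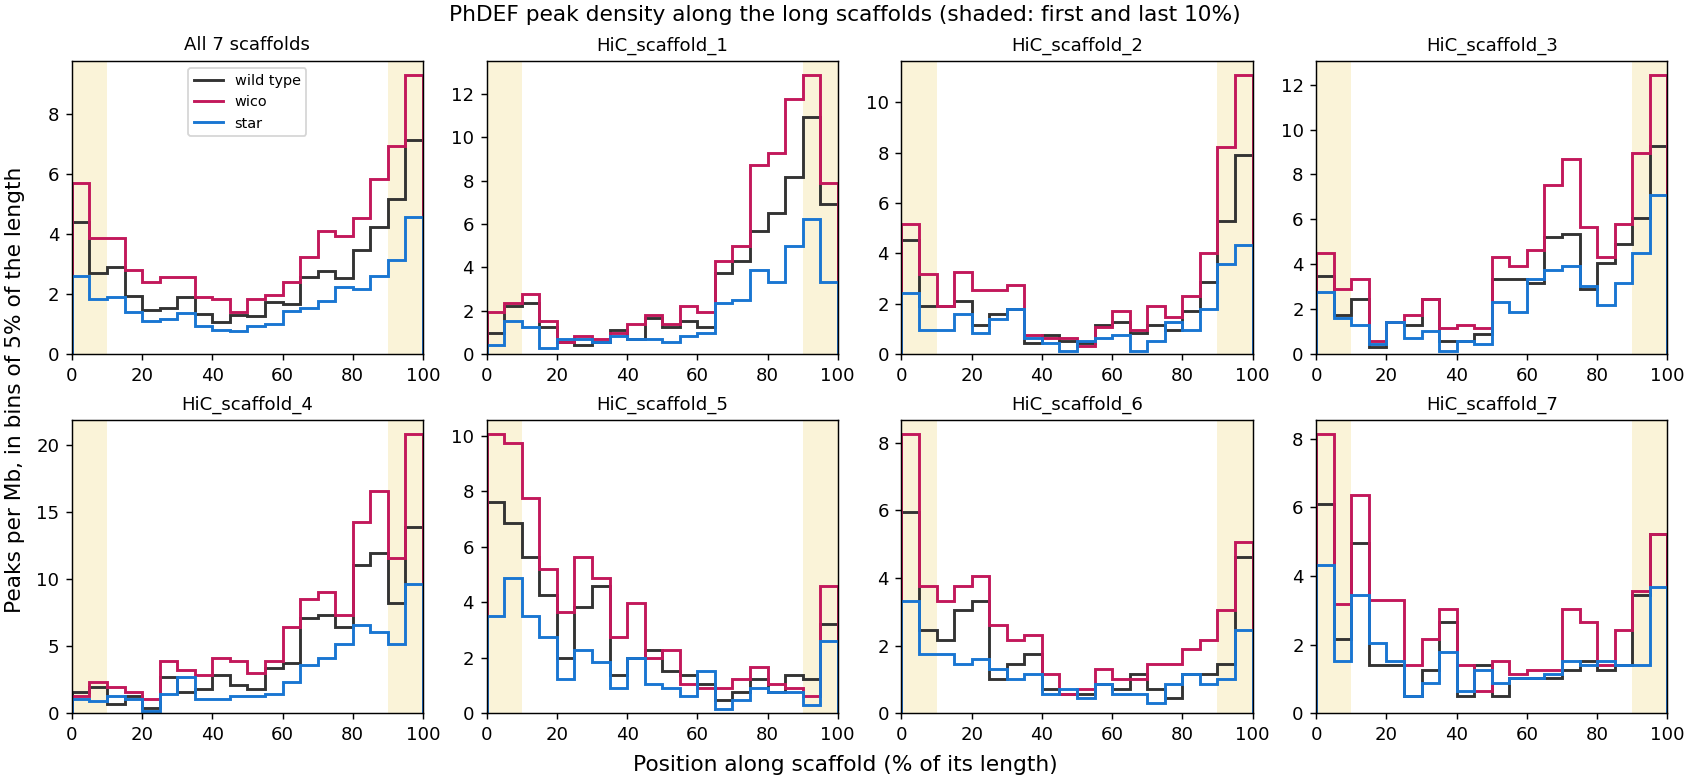
Number of PhDEF peaks per Mb (vertical axes, scale differs between panels) in 20 bins of 5% of the scaffold length (horizontal axes), for all 7 long scaffolds together and for each one; lines are the wild-type, wico and star lists, and shading marks the first and last 10%. Over all scaffolds density is lowest near the centre and highest in the last 5%, HiC_scaffold_1 and HiC_scaffold_4 climb toward their last end, and HiC_scaffold_5 falls from its first.

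The 2 ends of a scaffold were often unequal. Of the 14 single ends, 10 had a density above the middle of their scaffold by more than counting error in each list. The exceptions were the first ends of HiC_scaffold_1, HiC_scaffold_3 and HiC_scaffold_4 and the last end of HiC_scaffold_5. The first end of HiC_scaffold_4 held 20 wild-type, 20 wico and 11 star peaks, and its ratio to the middle was 0.431 (0.260 to 0.676), 0.311 (0.188 to 0.485) and 0.388 (0.191 to 0.707). PhDEF peaks were thus sparser there than in the middle in all 3 lists. The first end of HiC_scaffold_1 held 23 wild-type and 31 wico peaks, with ratios of 0.622 (0.388 to 0.951) and 0.623 (0.418 to 0.899). In star it held 14 peaks, and the interval of the ratio of 0.619 ran from 0.332 to 1.07. At the first end of HiC_scaffold_3 and the last end of HiC_scaffold_5 the ratios lay between 0.904 and 1.17, with intervals that held 1.

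The opposite ends of those 4 scaffolds were dense. The last end of HiC_scaffold_4 was the densest of the 14 in each list, with 11.03 wild-type, 16.2 wico and 7.38 star peaks per Mb. It exceeded the first end of the same scaffold by 6.20 times in the wild type (3.85 to 10.5), 9.10 times in wico (5.72 to 15.3) and 7.55 times in star (4.01 to 15.7). On HiC_scaffold_1 the last end exceeded the first by 5.61 times (3.58 to 9.16), 4.84 times (3.27 to 7.37) and 4.93 times (2.75 to 9.48). On HiC_scaffold_5 the first end was the denser one, by 3.28 times (2.14 to 5.15), 3.82 times (2.60 to 5.75) and 2.89 times (1.69 to 5.17). The denser end was the same in all 3 lists on 6 of 7 scaffolds. Among the 6, HiC_scaffold_6 had ends that were within counting error of each other in the wild type (1.38 times, 0.912 to 2.11) and star (1.46 times, 0.843 to 2.56), but not in wico (1.48 times, 1.04 to 2.12). HiC_scaffold_7 was the exception, where the ends differed by less than counting error in each list, with 65 and 68 wild-type, 89 and 69 wico, and 46 and 40 star peaks at the first and last end. The last end of HiC_scaffold_2 had the highest density relative to its own middle, with ratios of 5.13 in the wild type (4.06 to 6.45), 5.38 in wico (4.44 to 6.52) and 4.44 in star (3.31 to 5.94).

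**Figure D2:**
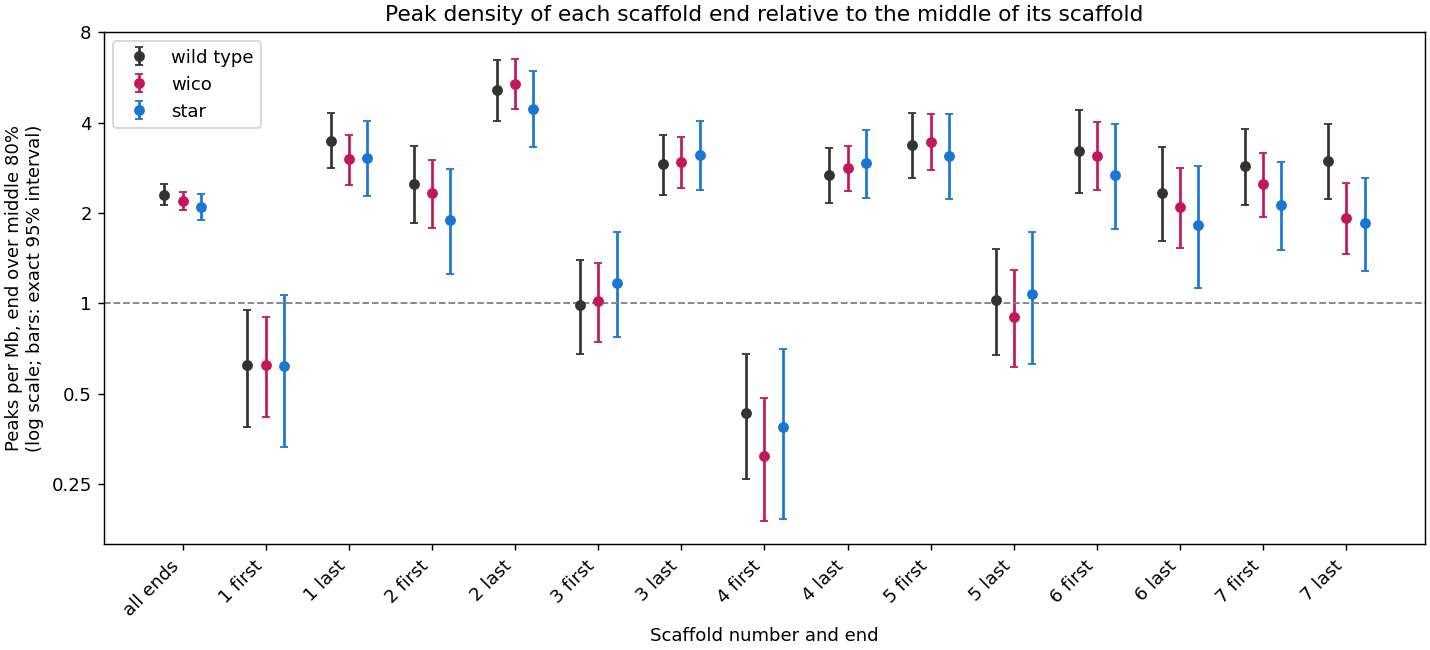
Ratio of peak density in each of the 14 scaffold ends to the middle 80% of the same scaffold (log axis), with all ends together at the left; points are the wild-type, wico and star lists and bars are exact 95% intervals. The ratio runs from 0.311 at the first end of HiC_scaffold_4 in wico to 5.38 at the last end of HiC_scaffold_2 in wico, and the lists lie close together at most ends.

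Beyond the outermost 5% of the length, density fell inward. In the wild type it was 5.19 peaks per Mb in the outermost 1% of the scaffolds (4.25 to 6.28), 5.09 between 1 and 2% (4.16 to 6.18), 6.18 between 2 and 5% (5.57 to 6.84) and 3.94 between 5 and 10% (3.56 to 4.34). Farther in, it was 3.14 between 10 and 20% (2.90 to 3.40), 2.08 between 20 and 30%, 1.87 between 30 and 40% and 1.34 between 40 and 50% (1.18 to 1.50). The 10% limit therefore cut a slope and not a step. The intervals of the 3 outermost shells overlapped in each list, the wild type included. The densities of these shells were 7.32, 7.76 and 7.48 peaks per Mb in wico and 3.71, 3.11 and 3.69 peaks per Mb in star. At 40 to 50% from the nearer end density was 1.76 (1.58 to 1.95) in wico and 0.880 (0.756 to 1.02) in star.

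The same pattern appeared in windows. The 3 lists were merged into regions, of which 1748 lay in the ends and 3325 in the middle. In windows of 1 Mb the ends held a median of 7 regions (quartiles 4 and 11, 191 windows) and the middle 3 (1 and 6, 804 windows). Windows without a region made up 2.09% of end windows (4 of 191, 0.573 to 5.28%) and 10.7% of middle windows (86 of 804, 8.65 to 13.04%). At least 10 regions were found in 70 end windows, or 36.6%, and in 72 middle windows, or 8.96%. The densest end window, at 108000001 to 109000000 of HiC_scaffold_4, held 37 regions, with 23 wild-type, 30 wico and 17 star peaks. The densest middle window lay near the same end of that scaffold, at 99000001 to 100000000, in the middle zone. It held 28 regions, with 19 wild-type, 21 wico and 5 star peaks.

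End peaks also ranked higher when each list was taken whole. Peaks were ranked by the authors' summed signal value, and the strongest peak of a list has a percentile of 100. In the wild type the median percentile was 54.1 for end peaks (51.3 to 57.9) and 48.0 for middle peaks (45.4 to 49.8), a difference of 6.11 points (2.78 to 10.7). In wico the medians were 55.8 (53.3 to 58.3) and 47.5 (45.7 to 49.2), a difference of 8.33 points (5.24 to 11.4). In star they were 55.1 (52.1 to 58.7) and 47.3 (44.0 to 49.8), a difference of 7.78 points (3.89 to 12.7). In shortened lists percentiles were taken anew among the kept peaks, so points there are not on the scale of the whole list. The difference was computed there as well. At a global IDR of at most 0.02, the measure of reproducibility described with the other properties of the peaks, it was 3.18 points in the wild type (-2.30 to 7.90), 3.03 in wico (-1.26 to 7.23) and 4.53 in star (-1.55 to 10.8), and each interval held 0. In the upper 50% of each list it was 0.957, 2.25 and 3.47 points, again with intervals that held 0. With ends of 20% the wild-type difference was 3.27 points, and its interval held 0 (-0.0084 to 8.38). The shift was small against the spread of the signal itself. The median summed signal of wild-type end peaks was 10.5 (quartiles 8.78 and 13.1), against 10.0 in the middle (8.50 and 12.5).

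Scaffold by scaffold, the median percentile was higher in the ends on 6 of 7 scaffolds in the wild type and on 7 of 7 in wico and star. Few scaffolds showed this beyond counting error on their own, namely 2 in the wild-type list, 3 in the wico list and 1 in the star list. HiC_scaffold_5 was among them in each list, with differences of 13.5 points in the wild type (3.07 to 22.7), 11.03 in wico (0.315 to 21.04) and 11.8 in star (3.24 to 25.2). The largest difference in the wild type was 17.1 points on HiC_scaffold_6 (1.51 to 29.0), and in wico 15.2 points on HiC_scaffold_2 (6.85 to 21.4). HiC_scaffold_1 showed none in the wild type, at -0.11 points (-10.4 to 10.7). The first ends of all scaffolds were also pooled, among them the denser ends of HiC_scaffold_5 and HiC_scaffold_6. These first ends exceeded the middle by 12.1 points in the wild type (4.32 to 16.6), 10.9 in wico (5.74 to 16.9) and 5.93 in star (-0.951 to 12.9). The pooled last ends exceeded the middle by 3.30 points (-1.55 to 8.50), 7.07 points (3.58 to 10.3) and 8.92 points (4.09 to 13.9) in the same order.

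Density and strength did not always go together. The first end of HiC_scaffold_1 was sparse, but its 23 wild-type peaks had a median percentile of 80.03 (56.8 to 95.2), which exceeded the middle of the scaffold by 26.6 points (2.98 to 43.1). In the chimeras the difference was 22.3 points for its 31 wico peaks (-0.795 to 36.5) and 21.02 for its 14 star peaks (-2.69 to 44.3), with intervals that held 0. The dense last end of that scaffold, with 129 wild-type peaks, had a median of 46.3 (38.7 to 58.4). The dense last end of HiC_scaffold_4 had medians of 49.8 for wild-type, 56.7 for wico and 62.6 for star peaks, and none of the 3 differed from its middle beyond counting error.

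The share of peaks in the ends was higher among strong peaks than among weak ones. In the wild type, the ends held 42.7% of the strongest 10% of the list (112 of 262 peaks on the long scaffolds, 36.7 to 49.0%) and 31.0% of the weakest 10% (81 of 261, 25.5 to 37.0%). In wico the shares were 40.7% (147 of 361, 35.6 to 46.0%) and 24.9% (88 of 354, 20.4 to 29.7%). In star they were 45.2% (76 of 168, 37.6 to 53.1%) and 26.0% (44 of 169, 19.6 to 33.3%). Even the weakest 10% were denser in the ends than in the middle in the wild type and wico, with ratios of 1.80 (1.37 to 2.35) and 1.32 (1.03 to 1.69). In star the ratio was 1.41, and its interval of 0.975 to 2.00 held 1. Peaks among the strongest 1% made up 1.43% of wild-type end peaks (14 of 981, 0.782 to 2.38%) and 0.469% of middle peaks (8 of 1706, 0.203 to 0.922%). In wico they made up 1.46% of end peaks (19 of 1305) and 0.503% of middle peaks (12 of 2387). In star they made up 0.653% (4 of 613, 0.178 to 1.66%) and 0.942% (11 of 1168, 0.471 to 1.68%), and the intervals overlapped. The intervals of the ends and the middle also overlapped slightly in the wild type (0.782 to 2.38% and 0.203 to 0.922%).

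**Figure D3:**
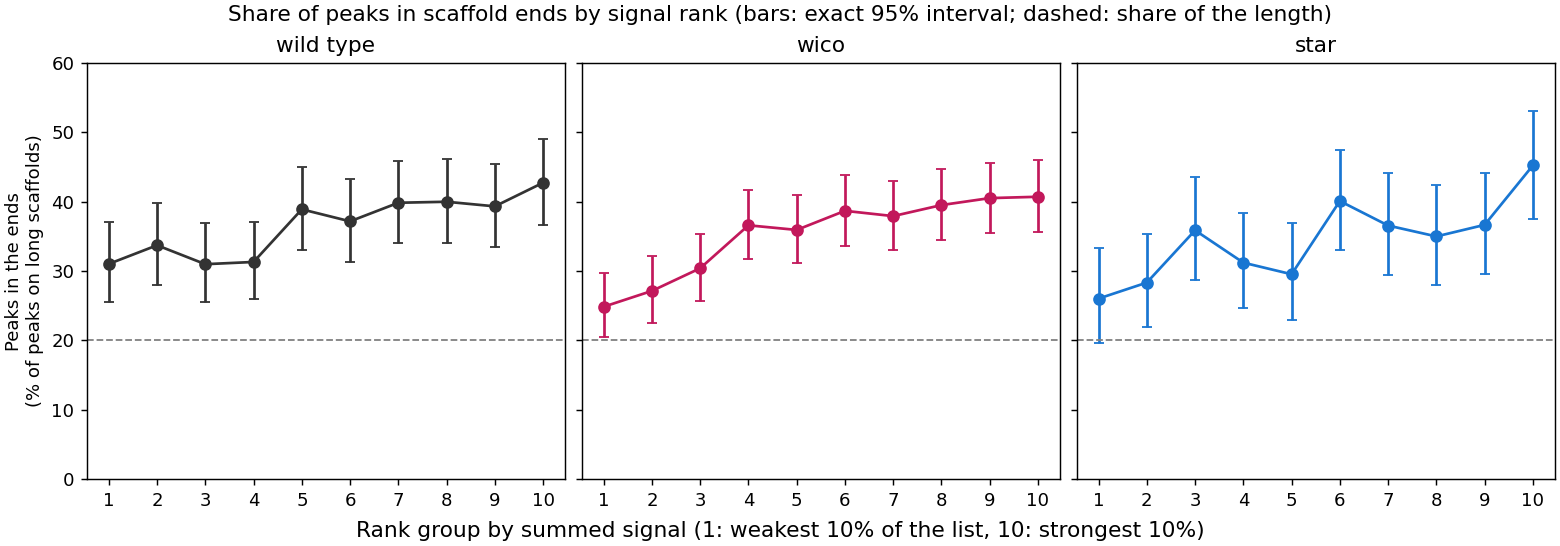
Percent of the peaks on the long scaffolds that lie in the ends (vertical axis) in 10 groups of summed signal rank (horizontal axis, strongest at the right), for the wild-type, wico and star lists; bars are exact 95% intervals and the dashed line is the 20% of the length that the ends make up. The share rises from 31.0% to 42.7% in the wild type, from 24.9% to 40.7% in wico and from 26.0% to 45.2% in star, between the weakest and the strongest group.

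Width and replicate balance differed little between ends and middle, whereas more peaks reached a low irreproducible discovery rate in the ends in each list. The median width was 420 bp in the ends and 428.5 bp in the middle in the wild type, 373 and 393 bp in wico, and 377 and 373 bp in star. Only in wico did the intervals of the medians not overlap (365 to 383 bp in the ends, 386 to 401 bp in the middle). The irreproducible discovery rate (IDR) estimates the share of peaks of a given rank or better that do not repeat between replicates. A global IDR of at most 0.02 was reached by 60.6% of wild-type end peaks (57.4 to 63.6%) and 54.3% of middle peaks (51.9 to 56.7%). The shares were 71.8% (69.3 to 74.2%) and 62.3% (60.3 to 64.2%) in wico and 58.4% (54.4 to 62.3%) and 51.2% (48.3 to 54.1%) in star. The lowest IDR the lists hold was reached by 3.98% of wild-type end peaks (2.84 to 5.39%) and 1.82% of middle peaks (1.24 to 2.57%). In wico these shares were 11.03% (9.39 to 12.9%) and 8.92% (7.81 to 10.1%), and in star 4.24% (2.79 to 6.15%) and 2.57% (1.74 to 3.65%), with intervals that overlapped. Rank and IDR come from the same 2 libraries of each genotype and are not independent measures. The balance of the 2 replicate columns was alike in both zones, where the median log2 ratio between them, first over second, was -0.31 in the ends and -0.30 in the middle in the wild type, 0.14 and 0.14 in wico, and -0.15 and -0.14 in star.

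The strongest end peaks were sites held by all 3 lists. The strongest of the wild type lay at 181556651 to 181557228 of HiC_scaffold_2, 7835 kb from the end. Its replicate signals were 13.3 and 20.8, and it ranked 5 of 3134, at percentile 99.9, against 99.5 for the wico peak and 96.7 for the star peak that overlapped it. The second lay at the same end at 183526702 to 183527078, with replicate signals of 15.4 and 16.6 and wild-type, wico and star percentiles of 99.7, 99.4 and 96.8. The strongest wico end peak lay at 7329230 to 7329905 of HiC_scaffold_6, with replicate signals of 21.5 and 17.1. It overlapped the next wild-type end peak in rank, and its wico, wild-type and star percentiles were 99.9, 99.6 and 96.5.

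The 2 wico end peaks that followed stood at the 2 ends where peaks were sparse. They lay at 6441513 to 6442093 of HiC_scaffold_4, with replicate signals of 21.05 and 17.2, and at 13366993 to 13367337 of HiC_scaffold_1, with 19.3 and 17.7. Both stood at percentile 99.8 of the wico list, at 99.3 and 98.7 of the wild-type list and at 98.4 and 95.6 of the star list. The strongest star end peak lay at 104995912 to 104996798 of HiC_scaffold_4, with replicate signals of 14.1 and 14.7 and percentiles of 99.8 in star, 98.98 in the wild type and 99.7 in wico. The second lay at 3808130 to 3808488 of HiC_scaffold_5, with percentiles of 99.6, 99.4 and 99.3 in the same order. The next star end peak differed in rank between the lists. It lay at 4826638 to 4827116 of HiC_scaffold_2, with replicate signals of 11.96 and 12.5 and a percentile of 99.4 in star, against 78.3 in the wild type and 70.4 in wico.

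Each of the 14 ends held at least 1 wild-type peak that was overlapped in both chimeras. The strongest such peak of each end ranked between percentile 96.1 and 99.9 of the wild-type list, with a median of 99.2. These peaks were picked for their signal, so a high rank is given by the choice. Stretches of the middle were not searched in this way. At most ends these peaks also stood high in the chimeras. The lowest wico percentile among them was 59.4, for the peak at 126110393 to 126110935 on the last end of HiC_scaffold_6, which stood at 96.1 in the wild type and 98.5 in star. The lowest star percentile was 83.6, for the peak at 129792289 to 129792977 on the last end of HiC_scaffold_3, which stood at 99.1 in the wild type and 98.7 in wico.

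The share of peaks found in another genotype differed between ends and middle by the widest margin for star peaks. Peaks were called shared when they overlapped by at least 1 bp. The wild type overlapped 370 of the 613 star end peaks, or 60.4% (56.4 to 64.3%), against 53.5% of all star peaks on the long scaffolds. In the middle the share was 49.8% (46.9 to 52.7%), so the ends exceeded the middle by 10.5 points (5.67 to 15.3). Overlap of star peaks by wico was 63.0% in the ends (386 of 613, 59.0 to 66.8%), 54.6% in the middle (51.7 to 57.5%) and 57.5% over all long scaffolds, a difference of 8.35 points (3.53 to 13.1). Star peaks overlapped by neither list made up 29.4% of end peaks (180 of 613, 25.8 to 33.1%) and 37.7% of middle peaks (34.9 to 40.5%). The share overlapped by the wild type was higher in the ends on 7 of 7 scaffolds, by 3.63 to 19.7 points, and on 3 of them by more than counting error. The share overlapped by wico was higher on 6 of 7, and on 1 of them by more than counting error. Among the 2 sides, 62.6% of 390 star peaks in the last ends were overlapped by the wild type (57.6 to 67.4%), against 56.5% of 223 in the first ends (49.7 to 63.1%). These intervals overlapped.

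For wico peaks the differences were smaller. The wild type overlapped 718 of 1305 end peaks, or 55.0% (52.3 to 57.7%), against 50.5% in the middle (48.5 to 52.5%) and 52.1% over all long scaffolds, a difference of 4.54 points (1.17 to 7.88). Among the scaffolds this difference ran from -2.71 points on HiC_scaffold_5 to 17.3 points on HiC_scaffold_7 (7.54 to 26.5). Its interval held 0 without HiC_scaffold_7 (2.80 points, -0.793 to 6.37), at a global IDR of at most 0.02 (2.15 points, -1.94 to 6.22) and in the upper 50% of the lists (2.65 points, -1.95 to 7.21). With lists of equal length the difference was -0.73 points (-5.01 to 3.49). Star overlapped 29.5% of wico end peaks (385 of 1305, 27.0 to 32.1%), against 26.7% in the middle and 27.7% over all long scaffolds, and the difference of 2.82 points had an interval that held 0 (-0.200 to 5.89).

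Wild-type end peaks were found in the chimeras about as often as middle peaks. Wico overlapped 714 of 981 wild-type end peaks, or 72.8% (69.9 to 75.5%), against 70.8% in the middle (68.6 to 73.0%) and 71.5% over all long scaffolds. The difference was 1.97 points (-1.59 to 5.45). Star overlapped 369 of 981, or 37.6% (34.6 to 40.7%), against 34.1% in the middle (31.9 to 36.4%) and 35.4% over all long scaffolds, a difference of 3.50 points (-0.252 to 7.29). The part of wild-type end peaks found in both chimeras was 32.8% (322 of 981), and in the middle it was 28.9%, a difference of 3.93 points (0.314 to 7.59). A further 39.96% of the end peaks were found in wico alone, 4.79% in star alone and 22.4% in neither, against 41.9%, 5.22% and 24.0% of the middle peaks.

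**Figure D4:**
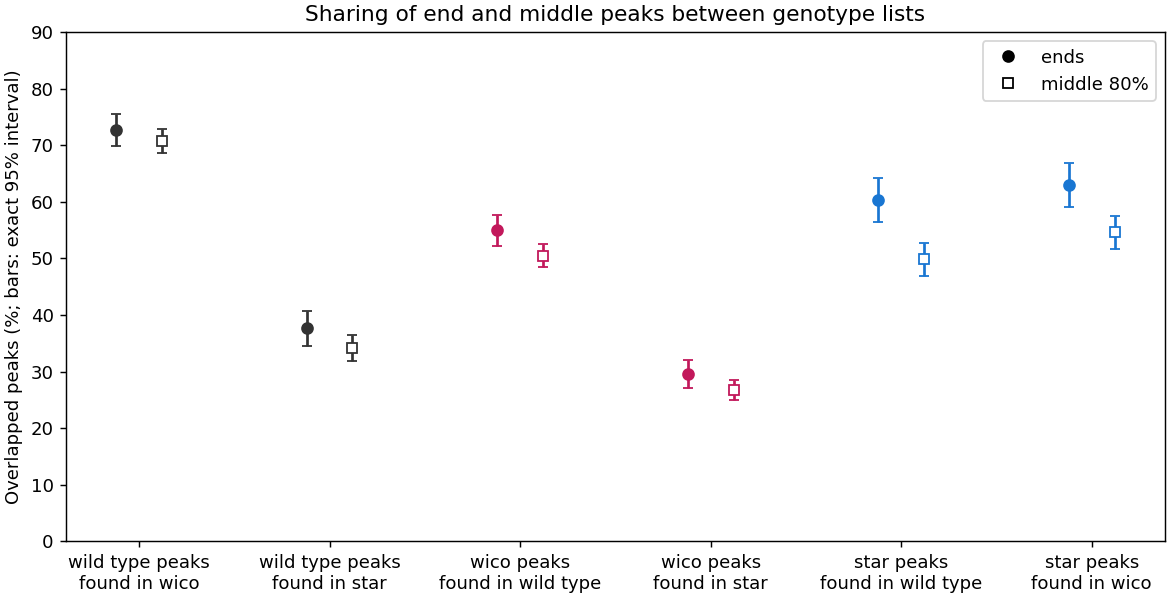
Percent of peaks of 1 list that are overlapped by a peak of another list (vertical axis), for each ordered pair of lists (horizontal axis); filled circles are end peaks, open squares are middle peaks, and bars are exact 95% intervals. Star peaks show the widest gap, at 60.4% in the ends and 49.8% in the middle for overlap by the wild type, and the intervals of wild-type peaks overlap.

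Overlap rose with rank. Among wild-type end peaks, wico overlapped 34.6% of those in the lowest 25% of the list (72 of 208) and 96.3% of those in the highest 25% (258 of 268). Middle peaks showed the same rise, from 38.3% (169 of 441) to 96.0% (381 of 397). End peaks also ranked higher than middle peaks, so sharing was also compared among peaks of similar rank. Within 10 groups of rank, the end-minus-middle difference became -1.36 points for wico peaks overlapped by the wild type, in place of 4.54. For wild-type peaks it was -1.34 points for overlap by wico, in place of 1.97, and 0.546 points for overlap by star, in place of 3.50. For star peaks it stayed positive, at 6.57 points for overlap by the wild type and 4.25 points for overlap by wico. No interval was computed for these differences within 10 groups. In 4 equal groups of star rank, a split chosen after seeing the data, the difference for overlap by the wild type was 4.51 points among the weakest peaks (-4.09 to 13.8) and 2.73 in the next group (-7.17 to 12.7). It was 12.1 points between percentiles 50 and 75 (67.6% in the ends, 55.6% in the middle, 2.83 to 20.8) and 6.35 among the strongest (87.4 and 81.0%, -0.848 to 13.02). Overlap of star peaks by wico differed beyond counting error in the strongest group, at 89.7% in the ends and 79.8% in the middle, or 9.81 points (2.81 to 16.3). In the other groups, from the weakest up, it was 2.44 points (-6.69 to 12.2), 1.05 points (-8.90 to 10.97) and 4.93 points (-4.12 to 13.6), each with an interval that held 0.

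Merged regions count the same overlaps from the other side, so they are not a result separate from the shares above. They were not compared within groups of rank. Regions in all 3 lists lay in the ends in 39.6% of cases (322 of 814, 36.2 to 43.01%), and those in the star list alone in 29.0% (180 of 620, 25.5 to 32.8%). Those in both chimeras without the wild type lay there in 30.3% (63 of 208, 24.1 to 37.0%). The other classes were close to the 34.5% of all regions (33.1 to 35.8%), with 35.5% for regions in the wild type and wico, 34.6% for the wild type and star, 35.0% for the wild type alone and 33.6% for wico alone. Each class exceeded the 20% of the length that the ends make up. The density ratio of ends to middle was 2.62 for regions in all 3 lists (2.27 to 3.02) and 1.64 for regions in star alone (1.37 to 1.95), with intervals that did not overlap.

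**Figure D5:**
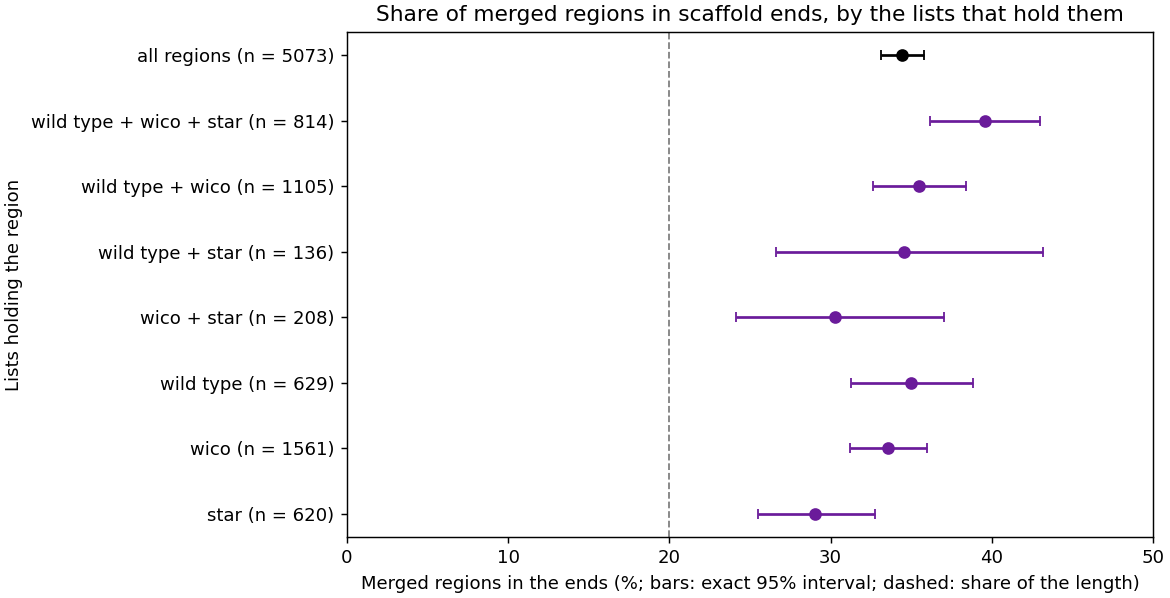
Percent of merged regions that lie in the ends (horizontal axis), for all regions and for the 7 combinations of lists that hold a region (vertical axis, with the number of regions); bars are exact 95% intervals and the dashed line is the 20% of the length that the ends make up. Regions in all 3 lists stand highest at 39.6% and regions in star alone lowest at 29.0%.

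Peaks without a counterpart were also found in the ends. The strongest wild-type end peak held by wico but not by star lay at 2785177 to 2785709 of HiC_scaffold_5, with percentiles of 99.3 in both lists, and the nearest star peak was 14.9 kb away. The strongest held by star but not by wico lay on the same end at 12970621 to 12971606. It stood at percentile 84.3 in the wild type, with replicate signals of 8.75 and 5.60, and at 54.1 in star. The strongest wild-type end peak in neither chimera lay at 131133132 to 131134058 of HiC_scaffold_1, at percentile 97.4, with replicate signals of 8.80 and 12.2 and no chimera peak within 157 kb. The strongest wico end peak in neither other list lay at 111978739 to 111979042 of HiC_scaffold_4, 418 kb from the end, at percentile 96.8. The corresponding star end peak lay at 5917598 to 5917982 of HiC_scaffold_6, at percentile 86.3, where the replicates gave 5.88 and 7.78, and the closest peak of another list was 310 kb away.

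In the whole lists, the intervals for the excess of end peaks in each chimera relative to the wild type held 1. The end-to-middle ratio of wico was 0.951 times that of the wild type (0.857 to 1.05), and that of star was 0.913 times that of the wild type (0.805 to 1.03). When each list was reduced to its strongest peaks at the length of the star list, the value for star was 0.850, and its interval of 0.743 to 0.972 excluded 1. The value for wico was then 1.05 (0.923 to 1.20). The wico list held 1.33 peaks per wild-type peak in the ends (1.22 to 1.45) and 1.40 in the middle (1.31 to 1.49), and the star list held 0.625 (0.564 to 0.692) and 0.685 (0.635 to 0.738). Over all ends wico had more peaks than the wild type, but single ends varied. The first end of HiC_scaffold_4 held 20 wild-type and 20 wico peaks, and the last end of HiC_scaffold_7 held 68 and 69. At the last end of HiC_scaffold_7 the ratio to the middle was 2.99 in the wild type (2.23 to 3.97), 1.93 in wico (1.46 to 2.52) and 1.85 in star (1.28 to 2.62), with intervals that overlapped.

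The wild-type peak just inside a limit was 57.3 kb from it on HiC_scaffold_4, at percentile 55.6, and the one just outside was 44.0 kb from a limit on HiC_scaffold_5, at percentile 90.7. In wico these were 47.8 kb inside on HiC_scaffold_2, at percentile 57.4, and 19.4 kb outside on HiC_scaffold_6, at percentile 4.82. In star they were 66.2 kb inside on HiC_scaffold_1, at percentile 7.22, and 44.1 kb outside on HiC_scaffold_5, at percentile 52.6, the latter overlapping the wild-type peak just outside.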

How the data were processed

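The members and comparisons were chosen with earlier results of these data known. The submitters' processing notes name Bowtie2 2.4.2, MACS2, bedtools, FastQC and MultiQC without their roles, and the genome build is not given in the sources used here. Lists were matched to genotypes by library numbers. The deposited signal value is the sum of 2 replicate signals in every row, and its scale is not stated. The authors list a −log10 of the global IDR that reaches at most 5, for IDR values up to 0.1. Another 7 columns per list, on peak positions in single replicates, were not used. No list holds read counts, so depth is unknown.

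Intervals, all at 95%, were exact Poisson for densities, exact conditional for density ratios, Clopper-Pearson for shares and order-statistic for medians. Differences of medians combined the order-statistic intervals of both sides. Differences of shares combined Wilson intervals of both sides by the Newcombe method. Ratios of density ratios had Wald intervals on the log scale. Percentiles refer to the whole list, or to the kept peaks where a list was shortened, and positions count from 1. No peak is listed in the first 27.7 to 1333 kb of the scaffolds, whose true lengths may exceed the last peak, and assembly gaps and unmappable sequence were not removed. Named are the 3 strongest end peaks of each list, the strongest of each sharing class, the strongest shared peak of each end, the peaks nearest to a limit and the densest windows. The shells, the strongest 1% and the 4 rank groups were chosen after seeing the data. Alternatives changed the end size, scaffold length, IDR limit, list length, overlap rule, rank column and set of scaffolds. All calculations ran in Python 3.11.15 with numpy 2.4.6 and scipy 1.17.1 and were tested on simulated data, and bedtools 2.31.1 differed from the overlap code on 0 peaks.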

Additional observations from a re-analysis of the deposited data

How the results depend on the processing

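The density ratio stayed above 1, with its interval, in each of the 14 alternatives for each list, between 2.10 and 2.73 in the wild type, 1.97 and 2.61 in wico, and 1.959 and 2.52 in star. In the order wild type, wico and star it was 2.73, 2.54 and 2.48 with ends of 5%, 2.57, 2.52 and 2.39 at a global IDR of at most 0.02, and 2.65, 2.61 and 2.52 in the upper 50% by signal. When all lists were cut to equal length it was 2.60 in wico. Without HiC_scaffold_2 it was 2.10 in the wild type and 1.97 in wico, and without HiC_scaffold_4 it was 2.51 and 2.36. The percentile difference was 0.957, 2.25 and 3.47 points in the upper 50% of the lists. At an IDR of at most 0.02 it was 3.18, 3.03 and 4.53 points. With lists of equal length it was 4.21 in the wild type (-0.587 to 9.37) and 2.66 in wico, and with ends of 20% it was 3.27 in the wild type. All of these intervals held 0. By the first replicate column alone it was 5.13 points in wico (2.15 to 8.90). The interval lay above 0 in 11 of 15 alternatives in the wild type, 12 of 15 in wico and 13 of 15 in star. A shortened list spans a narrower range of signals by construction. Its percentiles were taken anew among the kept peaks, so its points are not on the scale of the whole list. The overlap of wico peaks by the wild type turned to -0.73 points with lists of equal length and to -1.36 within 10 rank groups, and that by star became -0.41 within rank groups. For overlap of wico peaks by the wild type the interval lay above 0 in 12 of 17 alternatives. For overlap of wico peaks by star that number was 3 of 17, for wild-type peaks by star 5 of 17 and for wild-type peaks by wico 1 of 17. The density ratio of star relative to the wild type was 0.850 with lists of equal length, with an interval below 1, and the cause was not tested. The cause was not tested for the equal lists. Within rank groups, peaks of like signal are compared by construction. No interval was computed for that setting, so it counts among the alternatives without an interval above 0. The overlap differences of star peaks stayed positive in each of 17 alternatives, from 6.57 to 12.1 points for the wild type and from 4.25 to 10.9 for wico. No paired analysis was possible because the replicates of a genotype were merged into a common list, and for the same reason the peak positions could not be recomputed without a replicate. Ranks by each replicate column alone gave differences of 7.83 and 6.37 points in the wild type, 5.13 and 8.10 in wico, and 6.34 and 9.003 in star, for peaks called from both. With depth unknown, a site missing from a list may have been bound.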

Other observations

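Peaks of 1 list stood closer together in the ends. Such distances depend on density, so they are not a result separate from the density ratios. The median distance from a peak to the nearest peak of its own list was 34.1 kb in the ends (95% interval 27.9 to 41.5 kb) and 77.2 kb in the middle (69.1 to 87.4 kb) in the wild type. It was 25.5 and 54.1 kb in wico and 66.4 and 134 kb in star. Peaks with a neighbour within 10 kb made up 29.0% of wico end peaks (26.5 to 31.5%) and 21.9% of wico middle peaks (20.3 to 23.6%). In the wild type these shares were 21.9% (19.4 to 24.6%) and 18.8% (16.9 to 20.7%), and in star they were 12.7% (10.2 to 15.6%) and 14.4% (12.4 to 16.5%), with intervals that overlapped. Close neighbours were thus more frequent in the ends beyond counting error in wico, and the difference between the lists was not tested. Whether the wico shares differ by more than the density of the ends alone would give was not tested either. The longest stretch without a region of any list was 4.68 Mb on HiC_scaffold_1, between 27.7 and 31.0% of its length, and on each of the other 6 scaffolds it was shorter and also lay in the middle.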
